A study of Homo sapiens with 4 samples.

Results

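The 10 genes described here are 7 matrix metalloproteinases (MMPs) and 3 of their tissue inhibitors (TIMPs), namely MMP1, MMP2, MMP3, MMP9, MMP10, MMP13, MMP14, TIMP1, TIMP2 and TIMP3. They were chosen by name, out of 19970 protein-coding genes on chromosomes 1 to 22 and X. For each gene, H3K27ac peaks were collected within 1 kb of the start site of its Ensembl canonical transcript and within 50 kb of its gene body (hg38, GENCODE release 44). MMP1, MMP3, MMP10 and MMP13 lie side by side on chromosome 11 and were counted as 1 locus, which gave 7 loci. A gene with a peak in the 1 kb window is called marked below.

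Acetylation of histone H3 at lysine 27 was profiled by ChIP-seq in MDA-MB-231 and Hs578T, which are established cell lines of triple-negative breast cancer, with 2 libraries per line. All 4 libraries shared the same treatment. After 8 h of starvation, cells received TWEAK, a cytokine of the TNF family, at 10 ng/ml for 48 h, which was then removed for 72 h according to the design text of the series. The paper states a longer time without it, and calls its ChIP-seq replicates of cell lines biological. Neither untreated cells nor cells kept in TWEAK are part of the analysis, and the lists therefore hold no contrast for the cytokine or its removal.

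MMPs are zinc-dependent proteases that are made as inactive precursors and cut collagens, gelatin, proteoglycans and other parts of the extracellular matrix. TIMPs bind the active site of MMPs and block it. In breast tumours this balance is known for its part in matrix remodelling and invasion, and several MMP genes are textbook targets of the transcription factor AP-1. H3K27ac is found at active promoters and enhancers, so peaks at these genes show which of their regulatory sequences carried the mark. A peak list gives no level of transcript or protein.

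The lists were unequal in size. That labelled MDA-MB-231 replicate 1 held 209 peaks, whereas the other 3 held between 43353 and 46330 and are called the large lists. Where 3 values are given in a row, they belong to the large lists, first MDA-MB-231 replicate 2, then Hs578T replicate 1 and last Hs578T replicate 2. Sequencing depth is unknown, since the lists carry no read numbers. Judged by shared bases at the 7 loci, the large lists were not grouped by cell line. The Jaccard index (shared over all covered bases) of MDA-MB-231 replicate 2 was 0.783 with Hs578T replicate 1. Its index with Hs578T replicate 2 was 0.740, and that of the Hs578T replicates with each other was 0.749. As a check of the cell type, promoters of 5 of 5 mesenchymal genes (VIM, CD44, AXL, ZEB1 and FN1) were marked in each large list. Of all protein-coding genes, 58.1%, 58.2% and 56.4% were marked. Of 6 luminal and epithelial genes, ESR1, GATA3, FOXA1 and CDH1 were marked in none of the lists, KRT8 in the 3 large ones and EPCAM in MDA-MB-231 replicate 2 and Hs578T replicate 1. The leukocyte gene PTPRC was unmarked, and the endothelial gene PECAM1 was marked in MDA-MB-231 replicate 2 by a peak of 7148 bp with a fold enrichment over background of 14.3, in Hs578T replicate 1 by one of 374 bp with 2.82, and in Hs578T replicate 2 not at all.

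MMP14 and the TIMP genes carried H3K27ac at their promoters, whereas the genes of the secreted collagenases, stromelysins and gelatinases did not. MMP14, TIMP1 and TIMP2 were marked in each large list, and TIMP3 in all of these but Hs578T replicate 2. That is 4, 4 and 3 of 10 genes, where 58.1%, 58.2% and 56.4% of all protein-coding genes were marked in the same lists. These counts take MMP1, MMP3, MMP10 and MMP13 singly. By locus they are 1 of 7, and each marked gene is 1 of the others. In MDA-MB-231 replicate 1 none of the 10 was marked, and 0.0601% of all protein-coding genes were. MMP1, MMP2, MMP3, MMP9, MMP10 and MMP13 had no promoter peak in any of the 4 lists. The mean over the Hs578T lists was 3.5 ± 0.707 marked genes (SD, n = 2). The mean over the MDA-MB-231 lists, 2.0 ± 2.83 (SD, n = 2), describes neither of them, being 4.0 without replicate 1 and 0 without replicate 2. No test was made between lines, since there are only 3 ways to divide 4 lists into pairs and the smallest two-sided p of an exact permutation would be 0.333.

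**Figure D1:**
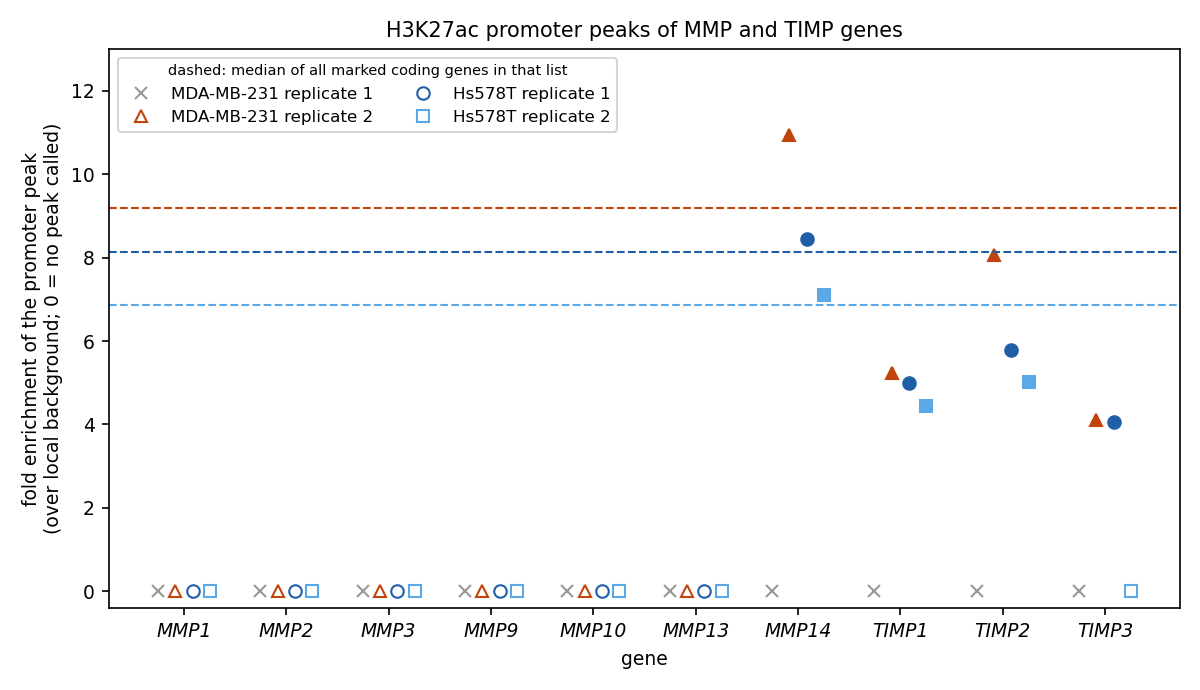
Fold enrichment of the promoter peak over the local background of its own library (vertical axis, ratio) for the 10 genes (horizontal axis) in the 4 lists, with open symbols or crosses at 0 where no peak was called and dashed lines at the median of all marked protein-coding genes of each large list. Among MMP genes, MMP14 is marked in each large list and the other 6 are not, and MMP14 is the member whose values, 10.9, 8.46 and 7.10, lie above the median of the same list.

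MMP14 encodes a protease anchored in the cell membrane, which cleaves collagen and activates the precursor of MMP2 at the cell surface. Its start site is at position 22836585 of chromosome 14 on the plus strand. The promoter peak had a fold enrichment of 10.9, 8.46 and 7.10. Fold enrichment is relative to the background of each library, so its size was read within a list and not between lists. These values exceeded those of 62.0%, 52.7% and 52.2% of the marked protein-coding genes, so the peak was near the middle of marked promoters in strength. It was wide: with 4678, 4868 and 3052 bp it exceeded 91.1%, 90.0% and 79.2% of promoter peaks.

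TIMP1, TIMP2 and TIMP3 encode small inhibitors that are secreted, TIMP3 being the one that binds to the matrix, and TIMP2 also takes part in the activation of MMP2 by MMP14. At TIMP2 (chromosome 17, start site 78925387, minus strand) the promoter peak had a fold enrichment of 8.07, 5.78 and 5.01. This was above 41.7%, 28.8% and 28.3% of marked genes. The peak spanned 2635, 3383 and 3222 bp, which was wider than 73.0%, 80.7% and 81.2% of promoter peaks.

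At TIMP1 (chromosome X, start site 47582436, plus strand), which lies within SYN1 on the other strand, the peak was weaker and narrow. Its fold enrichment was 5.23, 5.003 and 4.44, above 17.8%, 21.1% and 20.8% of marked genes. The width was 715, 1063 and 943 bp, and 8.76%, 17.9% and 16.7% of promoter peaks were narrower. TIMP1 was thus low among marked promoters of each large list, by fold enrichment as well as by width.

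TIMP3 (chromosome 22, start site 32801705, plus strand), which lies within SYN3 on the other strand, was the member whose call differed between the large lists. In MDA-MB-231 replicate 2, a peak of 2865 bp with a fold enrichment of 4.10 ran across the start site. In Hs578T replicate 1 there were 2 peaks instead. The nearer had 249 bp and ended 197 bp upstream of the start site, and the stronger had 1344 bp and a fold enrichment of 4.07. In Hs578T replicate 2 the nearest peak, of 1274 bp with a fold enrichment of 3.01, began 1084 bp away and thus just outside the window. A stretch downstream of the start site was shared by the 3 lists, whereas bases upstream of it were covered in all but Hs578T replicate 2. TIMP3 was marked in all 3 lists when the window was widened to 2.5 kb. The MDA-MB-231 replicate 2 and Hs578T replicate 1 values exceeded 8.26% and 12.2% of marked genes.

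By fold enrichment the order of the promoter peaks was MMP14, TIMP2, TIMP1, TIMP3 in MDA-MB-231 replicate 2 and in Hs578T replicate 1, and the first 3 kept this order in Hs578T replicate 2. Over the Hs578T lists the means were 7.78 ± 0.960 for MMP14, 5.39 ± 0.541 for TIMP2 and 4.72 ± 0.396 for TIMP1 (SD, n = 2). Each SD gives the spread of a gene between lists, and the order of the genes was not tested.

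Promoter sequences from RefSeq (GRCh38.p14) matched 4 of the 10 genes, MMP10, MMP14, TIMP1 and TIMP3, which are an unmarked gene, the member with the strongest promoter peak and 2 weakly marked ones. The 250 bases before the start site are shown 5′ to 3′ on the strand of the gene. Capitals mark matches on either strand to the AP-1 motif (TGAGTCA or TGACTCA), the PEA3 motif of ETS factors (AGGAAG), the TATA box (TATAAA), the GC box bound by SP1 (GGGCGG) or the NF-κB motif.
MMP10 (chr11:102780629-102780878, minus strand): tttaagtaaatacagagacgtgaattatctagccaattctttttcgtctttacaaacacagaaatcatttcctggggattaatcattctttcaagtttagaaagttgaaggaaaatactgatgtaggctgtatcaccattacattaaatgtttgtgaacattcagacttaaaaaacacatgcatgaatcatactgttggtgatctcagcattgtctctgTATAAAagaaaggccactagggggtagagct
MMP14 (chr14:22836335-22836584, plus strand): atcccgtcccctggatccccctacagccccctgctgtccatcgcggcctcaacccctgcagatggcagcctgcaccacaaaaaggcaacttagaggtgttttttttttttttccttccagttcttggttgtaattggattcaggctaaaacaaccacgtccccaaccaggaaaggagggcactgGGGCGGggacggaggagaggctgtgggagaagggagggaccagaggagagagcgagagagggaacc
TIMP1 (chrX:47582186-47582435, plus strand): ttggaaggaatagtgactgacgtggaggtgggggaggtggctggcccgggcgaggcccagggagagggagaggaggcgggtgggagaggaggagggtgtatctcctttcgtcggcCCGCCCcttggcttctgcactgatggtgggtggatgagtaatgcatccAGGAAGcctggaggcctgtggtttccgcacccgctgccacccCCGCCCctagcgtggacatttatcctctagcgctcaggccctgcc
TIMP3 (chr22:32801455-32801704, plus strand): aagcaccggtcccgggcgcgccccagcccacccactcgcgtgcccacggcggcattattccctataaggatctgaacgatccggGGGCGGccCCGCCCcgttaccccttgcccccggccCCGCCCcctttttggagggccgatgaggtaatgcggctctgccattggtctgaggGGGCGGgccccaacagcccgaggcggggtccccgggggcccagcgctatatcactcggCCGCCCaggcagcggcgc

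Among the 4 genes shown, the unmarked MMP10 differed from the marked ones in base composition. The other unmarked members had no such sequence and are not covered by this comparison. MMP10 had 34.4% G and C and a TATA box that began 31 bases before the start site, and no GC box. MMP14 had 56.8% G and C and 1 GC box, TIMP1 64.8% with 2 GC boxes and a PEA3 match, and TIMP3 72.4% with 5 GC boxes. Over 15315 protein-coding genes with such a sequence, the TATA box occurred in 9.24%, the GC box in 56.7%, the PEA3 motif in 28.8%, the AP-1 motif in 3.17% and the NF-κB motif in 5.70%. Neither the AP-1 motif nor the NF-κB motif was found in these windows of the 4 genes. The AP-1 search took exact matches only, so sequences that differ by 1 letter, such as TGAGTAA in the TIMP1 window, were not counted. Motif matches are letters and do not show that a factor was bound.

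The ratio of observed to expected CpG was 0.272 for MMP10, 0.348 for MMP14, 0.476 for TIMP1 and 0.803 for TIMP3. The 15315 promoters with such a sequence were split by this ratio into 4 classes of equal size. In the class with ratios up to 0.390, to which MMP10 and MMP14 belong, 19.8%, 20.4% and 19.2% were marked. In the next class, up to 0.742, which holds TIMP1, the share was 59.6%, 60.0% and 58.1%. In that from 0.742 to 0.902, which holds TIMP3, the share was 78.0%, 78.0% and 75.6%. MMP14 was thus marked in a class of which most promoters were not, although its ratio was near the upper bound. TIMP3, in a class mostly marked, had the weakest promoter peaks of the marked members.

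The chromosome 11 cluster lacked the mark over a long distance. It holds the genes of the collagenases MMP1 and MMP13, which cut fibrillar collagen, and of the stromelysins MMP3 and MMP10, which have broad substrates and activate other MMPs. From MMP10 to MMP13 these genes span 185.2 kb, with MMP12 among them. With 50 kb on either side (chromosome 11, 102720502 to 103005732) the locus held 0 peaks in MDA-MB-231 replicate 1 and 1 peak in each large list. That peak covered 1162, 1157 and 1161 bp, or 0.407%, 0.406% and 0.407% of the locus. MMP1, MMP3 and MMP10 had no peak within 50 kb of their gene bodies in any list, whereas 86.9%, 87.1% and 87% of all protein-coding genes had one in the same large lists. In MDA-MB-231 replicate 1 the share over all protein-coding genes was 1.61%, and none of the 10 members was among them.

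The lone peak lay 40.2, 40.0 and 40.1 kb upstream of the start site of MMP13, outside any protein-coding gene. Its fold enrichment of 4.86, 5.12 and 5.66 was above 41.9%, 49.9% and 59.0% of all peaks of the same list, so it was an ordinary peak. It held 1 match to the AP-1 motif, which is shown in capitals with the bases around it (hg38).
Peak upstream of MMP13 (chr11:102996329-102996528, plus strand): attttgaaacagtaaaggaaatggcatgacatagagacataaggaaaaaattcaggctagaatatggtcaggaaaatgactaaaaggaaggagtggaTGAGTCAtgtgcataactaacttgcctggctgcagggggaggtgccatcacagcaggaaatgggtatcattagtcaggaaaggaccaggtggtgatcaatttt

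Between this peak and the next one on the other side, 391.5, 391.2 and 391.6 kb were free of peaks. The stretch held 7 protein-coding genes, which were MMP27, MMP8, MMP10, MMP1, MMP3, MMP12 and MMP13. Of all stretches between neighbouring peaks, 2.63%, 2.43% and 2.52% were at least as long. Windows of the length of the locus, 285231 bp, laid end to end along the chromosomes held no peak in 32.2%, 31.7% and 32.0% of cases, so a nearly empty window of this size was common. Peaks resumed 166.1, 166.0 and 166.3 kb beyond MMP10, inside MMP20, the gene of a protease of developing tooth enamel. There the mark was strong, with a fold enrichment of up to 14.9, 21.6 and 13.1. These peaks spanned 6229, 2939 and 5823 bp, so the values cover unlike lengths.

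**Figure D2:**
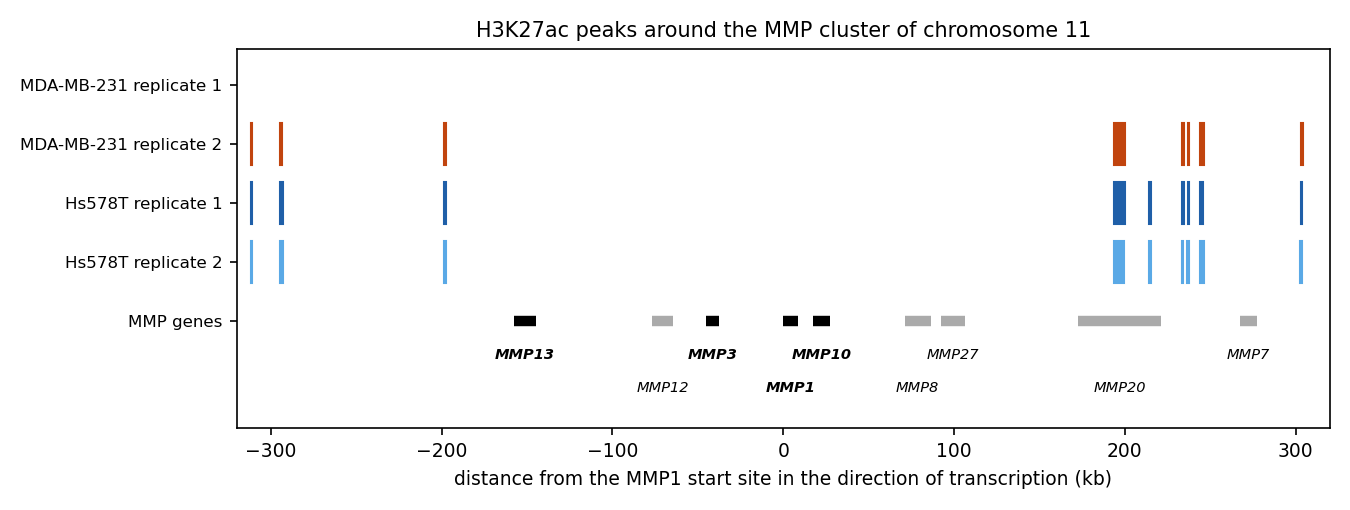
H3K27ac peaks (coloured bars) in the 4 lists around the MMP cluster, by distance in kb from the start site of MMP1 in the direction of transcription, with the 4 member genes in black and 5 further MMP genes in grey. The 3 large lists share the same empty stretch of 391.2 to 391.6 kb, bounded by 1 peak upstream of MMP13 and by the peaks inside MMP20, and MDA-MB-231 replicate 1 has no peak in the area shown.

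The gelatinase genes were also unmarked, but not without peaks nearby. MMP2 (chromosome 16, start site 55479198, plus strand) encodes the gelatinase that MMP14 activates. The nearest peak to its start site was 6244, 6275 and 6499 bp upstream, with fold enrichments of 9.06, 9.87 and 7.48. It exceeded 71.7%, 78.4% and 72.2% of all peaks of the list and spanned 2899, 2537 and 2421 bp. This place lies before the canonical transcript, inside the span of a longer annotated transcript of the gene. Weaker peaks lay in intron 11 (4.10, 5.75 and 5.02) and intron 12 (3.19, 3.41 and 2.96) of the 12 introns. Another region, with values of 4.59 in MDA-MB-231 replicate 2 and 3.03 in the list of Hs578T replicate 2, was at the promoter of the neighbouring gene LPCAT2. The upstream peak held 2 AP-1 matches, of which that nearer to the middle of the shared part is shown.
Peak upstream of MMP2 (chr16:55471512-55471711, plus strand): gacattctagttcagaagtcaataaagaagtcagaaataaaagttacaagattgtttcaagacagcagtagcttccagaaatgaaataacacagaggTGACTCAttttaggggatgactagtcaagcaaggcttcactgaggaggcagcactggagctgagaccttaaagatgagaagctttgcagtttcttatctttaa

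MMP9 (chromosome 20, start site 46008908, plus strand) encodes the other gelatinase. Within 50 kb of it there was 1 peak in each large list, 35214, 35031 and 35187 bp upstream. That peak was strong, with fold enrichments of 23.9, 20.7 and 17.5, above 97.7%, 96.4% and 96.5% of all peaks. It covered the start site of ZNF335, a zinc finger gene, and was therefore a promoter peak of the neighbour. No peak lay in the MMP9 gene body or downstream of it within 50 kb.

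MMP14 and TIMP2 stood out by the peaks around them. Of the window of gene body and 50 kb on either side, peaks covered 21.4%, 21.8% and 17.3% at MMP14 and 18.5%, 23.8% and 21.6% at TIMP2. The median over all protein-coding genes was 3.78%, 4.17% and 3.82%. At MMP14 this exceeded 97.0%, 96.0% and 94.1% of protein-coding genes, and at TIMP2 95.2%, 97.0% and 96.9%. The remaining genes were nearer to the median, at 6.34%, 8.33% and 8.49% for TIMP1, 6.84%, 6.20% and 6.04% for TIMP3, 3.85%, 3.61% and 3.49% for MMP9 and 2.64%, 2.21% and 2.22% for MMP2. The order of MMP14 and TIMP2 changed between the lists, and that of TIMP1 and TIMP3 did too.

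**Figure D3:**
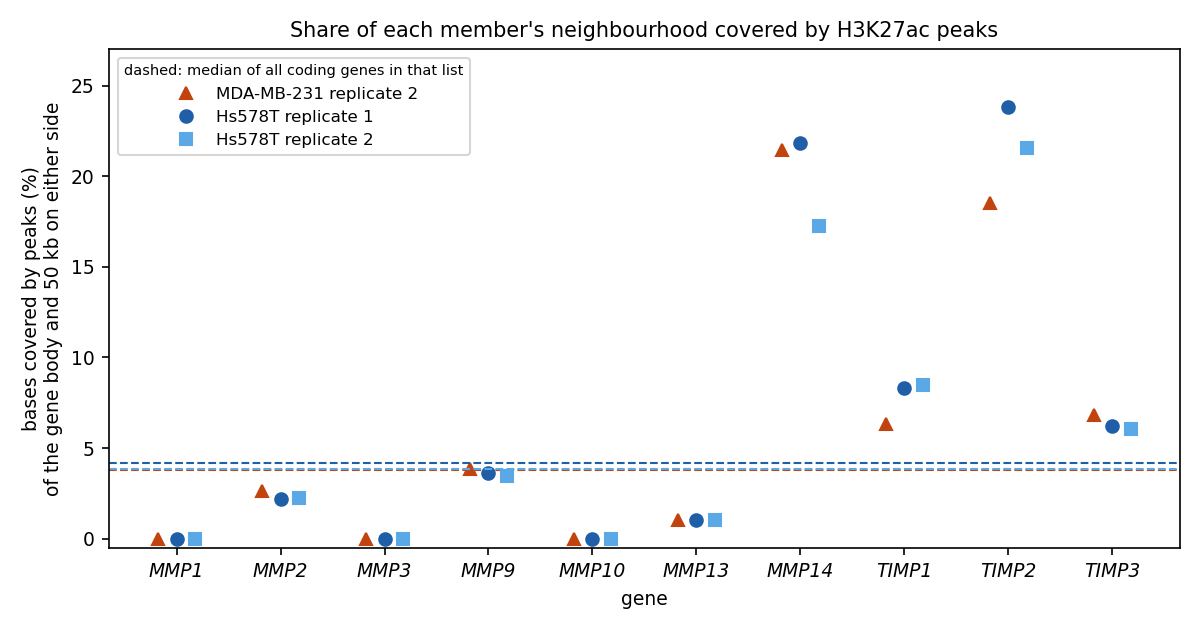
Percentage of bases covered by H3K27ac peaks in the gene body and 50 kb on either side (vertical axis) for each of the 10 genes (horizontal axis) in the 3 large lists, with dashed lines at the median of all protein-coding genes of the same list. MMP14 and TIMP2 lie between 17.3% and 23.8%, MMP2, MMP13 and the 3 genes at 0 lie below the medians of 3.78% to 4.17%, and MMP9 lies close to them.

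Around MMP14 there were 9, 8 and 9 peaks. The strongest did not lie at its promoter but at its other end, where a peak of 7032, 6884 and 6284 bp began within the gene, ran beyond it and came within 1 kb of the start site of a non-coding gene (chromosome 14, 22846622 to 22853658 for the merged region). Its fold enrichment was 20.9, 17.7 and 16.2, above 96.1%, 94.1% and 95.3% of all peaks. Next in strength were peaks at the promoter of LRP10, which encodes a receptor of the LDL receptor family, with 17.4, 13.9 and 12.7, and inside REM2, which encodes a small GTPase, with 14.1, 12.1 and 8.77. Peaks at the promoter of MRPL52, a mitochondrial ribosomal protein gene, had 7.09, 5.07 and 4.05. Hence part of the coverage around MMP14 belonged to promoters of its neighbours.

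Around TIMP2 there were 14, 13 and 16 peaks, many of them inside the gene. The strongest peak of all the loci lay in intron 1 of the 4 introns of TIMP2, with its middle 41.0 kb from the start site (chromosome 17, 78881427 to 78887439). Its fold enrichment of 41.2, 35.4 and 24.8 exceeded 99.9%, 99.7% and 99.2% of all peaks, and it spanned 4979, 6013 and 5309 bp. A further strong region lay in intron 3, with values of 22.1, 12.5 and 20.03. It was called as 1 peak of 9900 bp in Hs578T replicate 1 and as 2 peaks in the other large lists. Where it was split, the value is that of the stronger peak, so the 3 values cover unlike lengths. Upstream of the gene, centred at -7.92 kb from the start site and outside any protein-coding gene, a region had 17.8, 19.9 and 12.8. The promoter peak itself, at 8.07, 5.78 and 5.01, was thus weaker than these 3 regions in every large list. Of the 16 merged regions around TIMP2, 7 lay in its introns and 1 at the promoter of another coding gene, USP36, which encodes a deubiquitinase and had 16.2, 14.6 and 9.43.

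TIMP3 and TIMP1 had fewer peaks. At TIMP3 there were 4, 5 and 4, and the strongest was centred at -40.45 kb from the start site in SYN3 (chromosome 22, 32759043 to 32763471), with fold enrichments of 20.1, 16.2 and 12.96 against 4.10, 4.07 and 3.01 near the start site. No peak was called downstream of the promoter region in the remainder of the TIMP3 gene body or in the 50 kb after it. At TIMP1 there were 5, 5 and 6. Its strongest neighbours were promoter peaks of ARAF, a RAF kinase gene, with 9.18, 6.39 and 5.60, and of CFP, the gene of the complement factor properdin, with 7.94, 7.83 and 6.01. Per kb of merged region, AP-1 matches numbered 0.751 upstream of MMP13, 0.690 upstream of MMP2, 0.333 in intron 1 of TIMP2 and 0.677 upstream of TIMP3. In the region at the end of MMP14 there were 0.426, and in that centred at -26.11 kb from the TIMP1 start site 1.193. Each value rests on 1 to 3 matches. Over all distal peaks of the large lists there were 0.473, 0.455 and 0.460 per kb. The strong regions at the LRP10 promoter and inside REM2 held no match. The strongest regions of TIMP2 and TIMP3 held 2 and 3 matches over the parts covered in all large lists. The match nearest to the middle is shown in each, and the window was centred on it.
Peak in intron 1 of TIMP2 (chr17:78883322-78883521, plus strand): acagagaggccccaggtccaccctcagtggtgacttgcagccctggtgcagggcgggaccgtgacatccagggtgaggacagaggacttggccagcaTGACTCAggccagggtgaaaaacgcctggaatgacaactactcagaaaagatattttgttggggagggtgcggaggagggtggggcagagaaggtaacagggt
Peak upstream of TIMP3 (chr22:32761279-32761478, plus strand): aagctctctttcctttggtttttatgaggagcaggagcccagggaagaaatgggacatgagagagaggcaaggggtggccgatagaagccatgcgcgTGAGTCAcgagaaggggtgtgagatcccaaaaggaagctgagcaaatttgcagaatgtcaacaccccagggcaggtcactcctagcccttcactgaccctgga

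**Figure D4:**
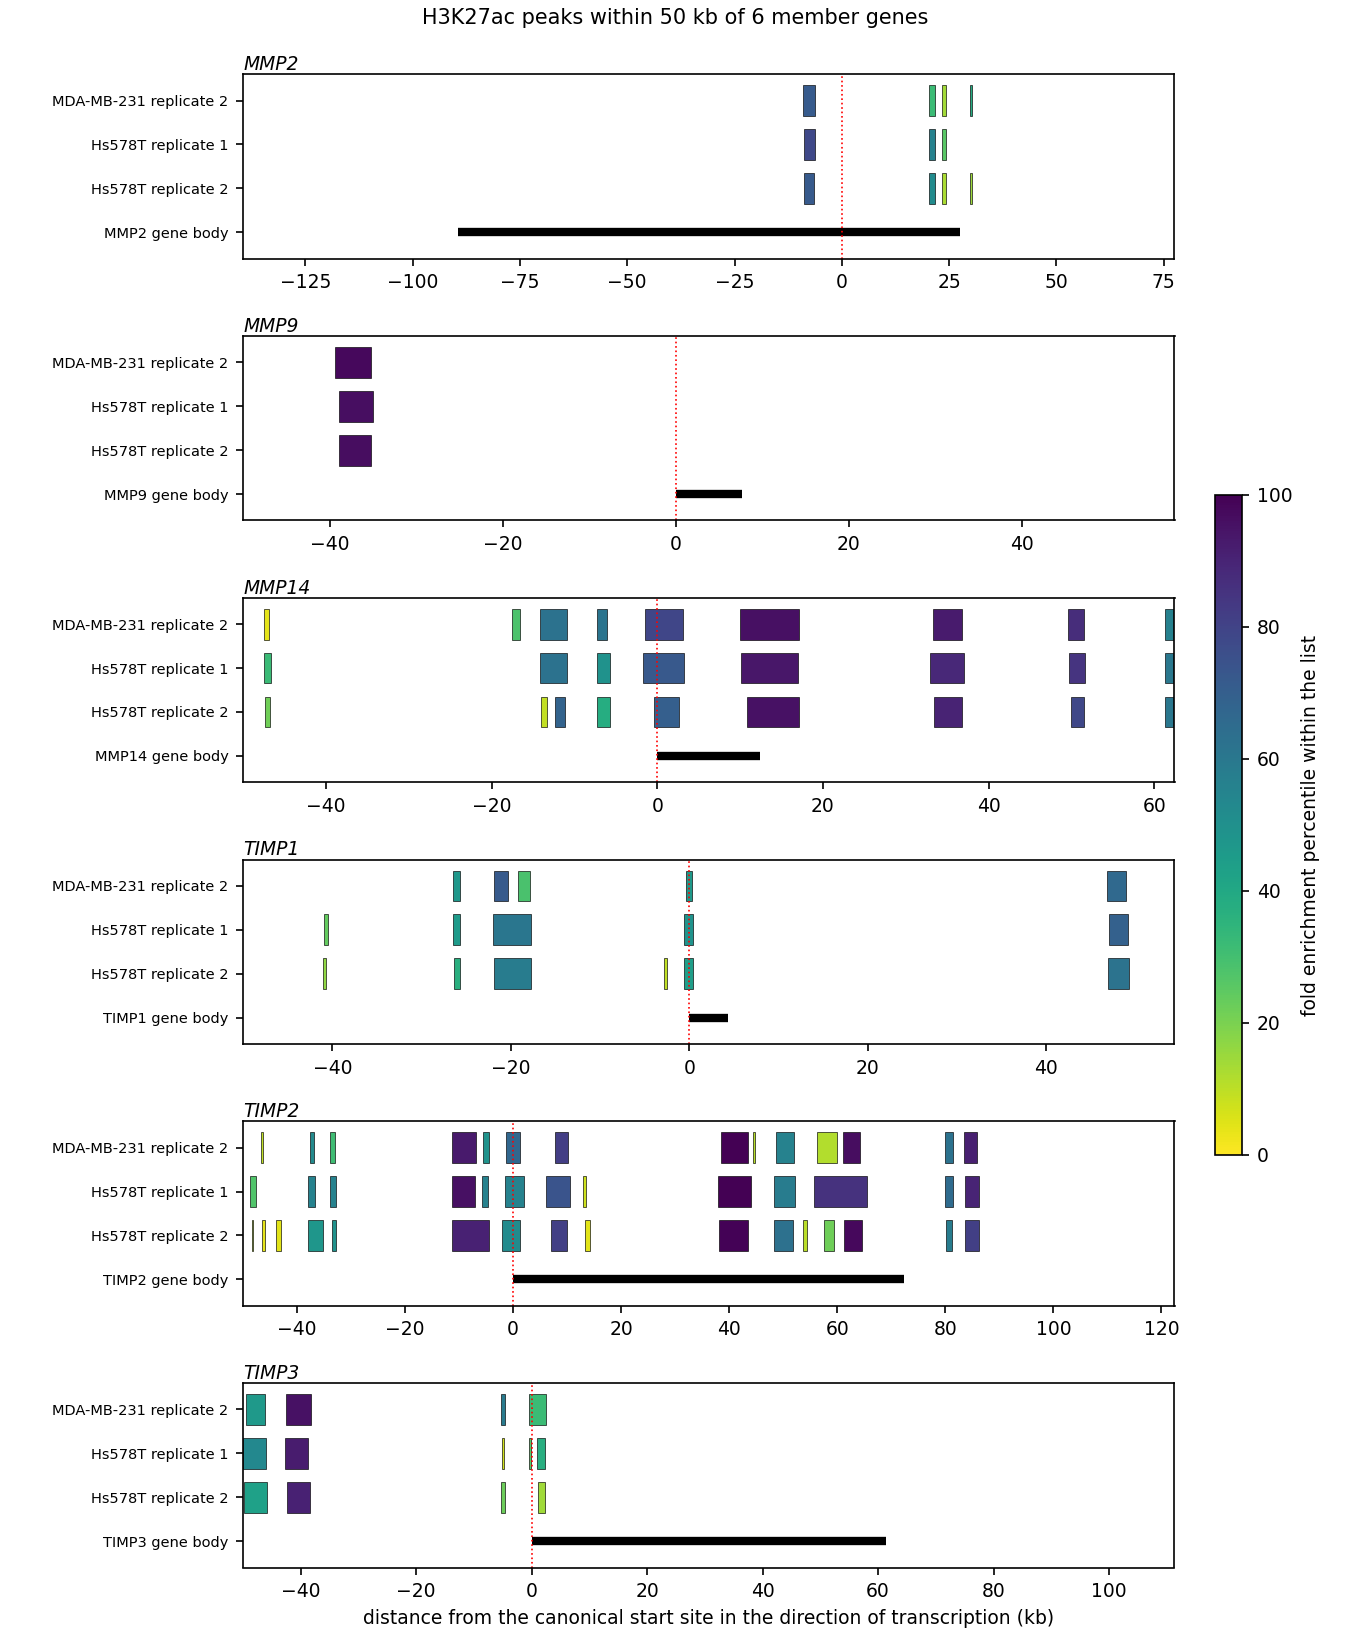
H3K27ac peaks within 50 kb of MMP2, MMP9, MMP14, TIMP1, TIMP2 and TIMP3 in the 3 large lists, by distance in kb from the canonical start site (dotted line) in the direction of transcription, with black bars for the gene bodies and colour for the percentile of fold enrichment within the list. Dark peaks lie, among other places, in intron 1 of TIMP2, beyond the end of MMP14, upstream of TIMP3 and at the ZNF335 promoter upstream of MMP9, and the promoter peaks of the 4 marked genes are paler.

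Over the 7 loci together there were 38, 36 and 41 peaks. The mean for Hs578T was 38.5 ± 3.54 and that for MDA-MB-231, whose replicate 1 had none, 19.0 ± 26.9 (SD, n = 2). The peaks covered 84760, 94204 and 84925 bp of 1160489 bp. The value of MDA-MB-231 replicate 2 lay within the spread between the Hs578T lists by number of peaks and just under both by covered length. Distal peaks, over 2.5 kb from every start site, numbered 24, 23 and 27. The AP-1 motif occurred in 16, 15 and 14 of them, or 66.7%, 65.2% and 51.9%, where 51.9%, 51.1% and 50.3% of all distal peaks of the lists held it. Per kb there were 0.542, 0.528 and 0.520 matches, against 0.473, 0.455 and 0.460 over all distal peaks, and repeats were not masked.

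Merging the 3 large lists gave 50576 regions over the chromosomes examined, of which 74.8% were called in each of them. At these loci there were 41 regions, of which 31, or 75.6%, were called in each large list. The 10 others were weak and narrow, with fold enrichments between 2.69 and 4.59, widths between 217 and 1121 bp and no value above 38.5% of the peaks of its list. Of these, 3 were called in both lists of Hs578T alone, and 2 in the remaining large list alone. A further 3 were found in Hs578T replicate 2 alone, and 2 in every large list but Hs578T replicate 1. None was the promoter of a member. Across the 31 shared regions, which are not independent replicates, the order of fold enrichments was alike, and most so between the lists of Hs578T, with a Spearman's rho of 0.911 between MDA-MB-231 replicate 2 and Hs578T replicate 1, 0.887 with Hs578T replicate 2 and 0.958 between the Hs578T lists. The region that departed furthest from this order was centred at -4.97 kb from the TIMP3 start site, at 6.72 or the 58.9th percentile in MDA-MB-231 replicate 2, and at 2.69 and 3.31 or the 7.36th and 22.4th percentiles in the Hs578T lists. With 1 large list of that label, this cannot be set against a spread within MDA-MB-231.

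**Figure D5:**
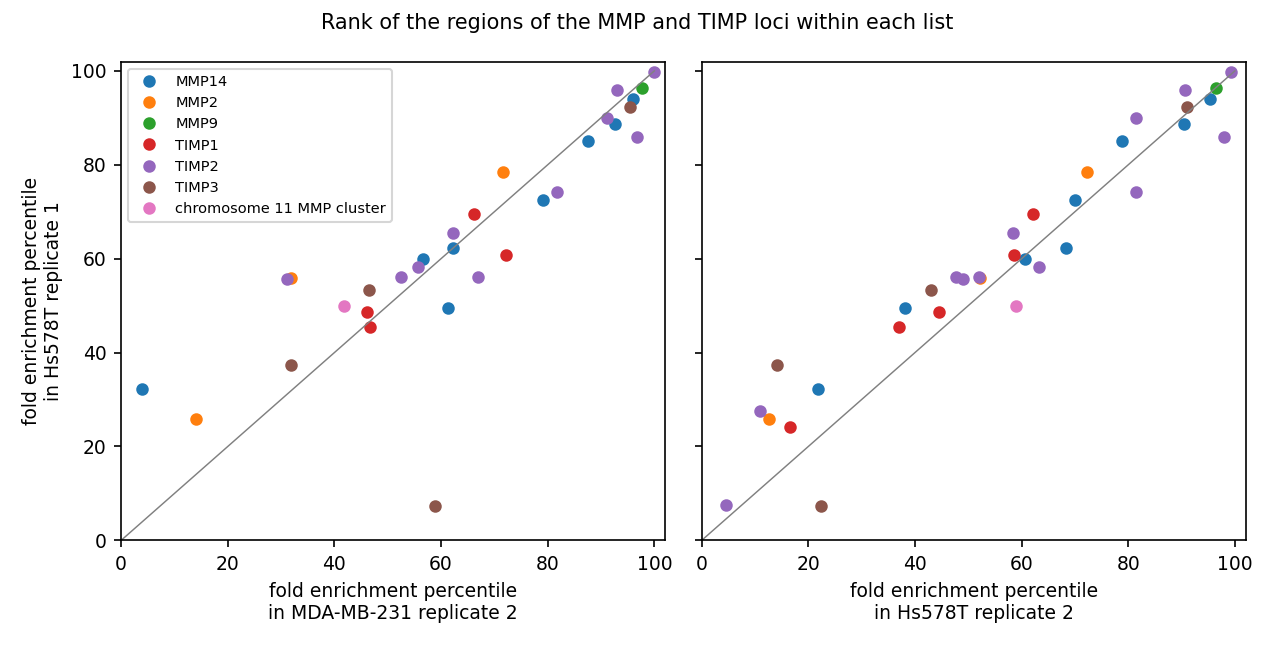
Percentile of fold enrichment of each merged region within the lists, with Hs578T replicate 1 on the vertical axis against MDA-MB-231 replicate 2 (left) and Hs578T replicate 2 (right), coloured by locus, for regions called in both lists of a panel. Points follow the grey line of equal percentiles, and the region upstream of TIMP3, at 58.9 and 7.36 in the left panel, lies furthest from it.

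The other genes of the MMP system were examined in the same way. Of 16 further MMP genes, promoters of 2, 3 and 3 were marked, which by gene is below the share over all protein-coding genes. They were MMP16, a membrane-anchored protease, and MMP19 in each large list, and MMP11, or stromelysin-3, in the Hs578T lists. Their peaks were weak, with fold enrichments of 4.27, 3.87 and 3.74 at MMP16 and 3.20, 4.23 and 3.57 at MMP19. MMP11 had 2.84 and 3.06 in Hs578T replicates 1 and 2, at a −log10 q of 1.82 and 1.875. Neither reached 2, the stricter cut used as an alternative. MMP8, MMP12, MMP26 and MMP27 had no peak within 50 kb in any list, all but MMP26 being part of the cluster described above. MMP7 and MMP20 also lie in that cluster, so the counts of members and of further genes partly describe the same locus.

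Among other inhibitors, TIMP4 and RECK, which encodes a membrane-anchored inhibitor of MMPs, were weakly marked in each large list, with 3.76, 3.36 and 3.05 and with 2.61, 3.88 and 3.30. The −log10 q of TIMP4 in Hs578T replicate 2 was 1.94 and that of RECK in MDA-MB-231 replicate 2 was 1.375, both below 2. A2M, the gene of the broad protease inhibitor alpha-2-macroglobulin, had no peak within 50 kb. Among genes that act upstream of MMP activity, PLAU, PLAUR, PLAT, FURIN and BSG were each marked in every large list. The share over all protein-coding genes was 58.1%, 58.2% and 56.4%. PLAU, which encodes the urokinase that generates plasmin, had peaks of 12757, 13464 and 13166 bp with fold enrichments of 23.1, 19.9 and 18.7. These values were above 96.0%, 94.4% and 97.3% of marked promoters. PLAUR, which encodes the receptor of urokinase, had 15.1, 10.5 and 8.42, and BSG, which encodes the inducer of MMPs also known as basigin, had 11.7, 10.0 and 8.21. FURIN, whose protease activates the precursor of MMP14, had 6.82, 6.74 and 6.001, and PLAT, the gene of tissue plasminogen activator, had 5.20, 3.83 and 3.37. The median fold enrichment of the marked members was 6.65, 5.39 and 5.01, beside 9.18, 8.13 and 6.86 over all marked protein-coding genes.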

How the data were processed

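H3K27ac ChIP-seq of 4 libraries was analysed from the peak lists, with line and replicate read from the titles of the samples. The authors trimmed adaptors (Trimmomatic), mapped reads to hg38 (Bowtie2), called peaks per library against input (MACS2) and removed blacklisted regions (bedtools). Versions and MACS2 settings were not stated, and the 9 columns are those of broad peak output. Fold enrichment is therefore a value of the whole called peak and not of a summit. The deposited columns hold a score, which is 10 times the −log10 q-value without decimals, a fold (ratio of signal to local background), and p-values and q-values on a −log10 scale. All deposited peaks were used, with q-values up to 0.0994. As peaks were called against input, they depend on that library too, and on depth, which is unknown.

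Every sequence name of the lists was found in the hg38 reference, and no peak ran past a sequence end. Overlap of at least 1 bp was required, and widths are given in full. Where several peaks fell in a window, the one with the highest fold enrichment was used. Percentiles give the percentage of peaks, or genes, of the same list with a lower value. Overlaps, coverage and motif search were computed in Python 3.11.15 with numpy 2.4.6 and tested on simulated data. The genes named were the 10 members, the marked genes of the lists given above, and neighbours that contain a member or whose start site lay within 50 kb of one and within 1 kb of a peak. Unmarked genes of the lists, the genes of the peak-free stretch, MMP20 and REM2 were named after their values were seen. A gene of the list of activators is not reported here. The genes and lists were chosen with earlier results of these data known. Alternatives were other windows, start sites, flanks and locus bounds, the strongest 50% of each list by score, a −log10 q of at least 2, merging within 1 kb and leaving out each replicate.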

Additional observations from a re-analysis of the deposited data

How the results depend on the processing

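Of 78 recomputed values, 17 were those of MDA-MB-231 replicate 1, which were 0 and stayed 0. Of the other 61, 33 stayed within 1.5 times the count reported or, for covered bases, within the spread between replicates, and 28 moved. For covered bases of MDA-MB-231 this was a weak criterion, because replicate 1 had no peak at these loci and made the spread wide. With the strongest 50% kept, 62939 of 84760 covered bp in MDA-MB-231 replicate 2 therefore counted as within it. Keeping the strongest 50% of each list left 2 marked genes, MMP14 and TIMP2, in each large list. Within 50 kb it also left 21 peaks in MDA-MB-231 replicate 2 and 20 in Hs578T replicate 2, 85432 and 63158 covered bp in Hs578T replicates 1 and 2, and 19 regions in each large list out of 26. At the chromosome 11 locus it left 0 peaks and 0 bp in MDA-MB-231 replicate 2 and Hs578T replicate 1. A −log10 q of at least 2 gave 77994 bp in Hs578T replicate 2. In the large lists, in the same order as above, a flank of 10 kb gave 20, 19 and 21 peaks and one of 100 kb gave 63, 58 and 67. Bounding the chromosome 11 locus by all MMP genes of the cluster, from MMP7, gave 6, 9 and 8 peaks covering 12618, 12952 and 13864 bp, the added peaks lying in or beyond MMP20. Leaving out 1 replicate put the mean of marked genes for MDA-MB-231 between 0 and 4.0 and that of peaks within 50 kb between 0 and 38.0, around the 19.0 reported for both lists. The same MMP genes stayed unmarked in the large lists under the other windows, with all basic transcripts as start sites and at the stricter q-value. No paired analysis was possible because no result came from a test. Depth limits absence: a promoter without a called peak may hold weak signal.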
